A study of Mus musculus with 3 samples.

Results

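Fatty acid oxidation and ketone use are covered here by 41 mouse genes, listed by symbol, that encode the enzymes and carriers of mitochondrial and peroxisomal beta-oxidation and of ketone-body breakdown. The list was drawn up by function, with earlier results of these data known. Of the 41, 37 had a row among the 20574 gene symbols of the tables, and Cpt1b, Crat, Acsl3 and Acox3 were not analysed here. Averaged over the 3 libraries, 33 members reached 1 FPKM or more, the filter used below. FPKM, the unit used throughout, is fragments per length of transcript and per depth of the library, so that levels of different genes can be compared per length.

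RNA was sequenced from primary peritoneal macrophages, labelled WT, in 3 conditions with 1 library each. The untreated library had no coculture. The second came from macrophages given 5 apoptotic cells each for 5 h and rinsed, and the third from macrophages given LPS, a bacterial lipid that triggers inflammatory signalling, at 100 ng/ml for 5 h. The title of the series links the uptake of dying cells to the oxidation of fatty acids and to respiration. The sources used here give no strain, age, sex, pooling, kind of apoptotic cell or time of the untreated culture. With 1 library a condition there is no replicate spread and no test: each difference is one between 2 libraries. An effect of treatment and one of time or handling cannot be told apart in either comparison with the untreated library.

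Long-chain fatty acids are first joined to coenzyme A by acyl-CoA synthetases. Carnitine palmitoyltransferases and a carnitine carrier bring the acyl group into the mitochondrion, where repeated rounds of dehydrogenation, hydration, dehydrogenation and thiolysis shorten it and release acetyl-CoA. Electrons from the first step pass through the electron transfer flavoprotein to the respiratory chain. Peroxisomes shorten very long and branched chains, and ketone bodies are turned back into acetyl-CoA by OXCT1, which transfers coenzyme A to acetoacetate, and ACAT1, which splits the product. In macrophages this route is known for its use in alternatively activated cells.

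Many values in these tables are exactly 0, abundant genes among them, and such a 0 can be a failed estimate. Ratios were therefore taken only between values above 0, and a 0 is given as listed. Of the 33 members, 11 are at 0 untreated, 5 with apoptotic cells and 6 with LPS. In the same order that is 33.3%, 15.2% and 18.2% of members, and 41.2%, 21.0% and 19.0% of all 7147 genes that pass the same filter. Judged by the smallest steps between values, 1 FPKM on a transcript of 2 kb is worth about 6.30 reads untreated, 6.25 with apoptotic cells and 5.84 with LPS. Intervals beside a ratio below are approximate 95% intervals from such read numbers and cover counting error only. Of 13 macrophage markers 7 were in the tables. Csf1r, Cd14, Csf2ra, Tyrobp and Fcer1g were listed at 0 with LPS, so that this list could not check the labelled cell type there. Of the large peritoneal macrophage list, 5 of 11 genes were at 0 with LPS. Others stood above 0 there, among them Cd9 at 630 FPKM, Vsig4 at 11.6 FPKM and Gata6 at 8.81 FPKM. Untreated, Csf1r stood at 56.3 FPKM and Tyrobp at 413 FPKM. With apoptotic cells Csf1r stood at 185 FPKM and Tyrobp was listed at 0.

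**Figure D1:**
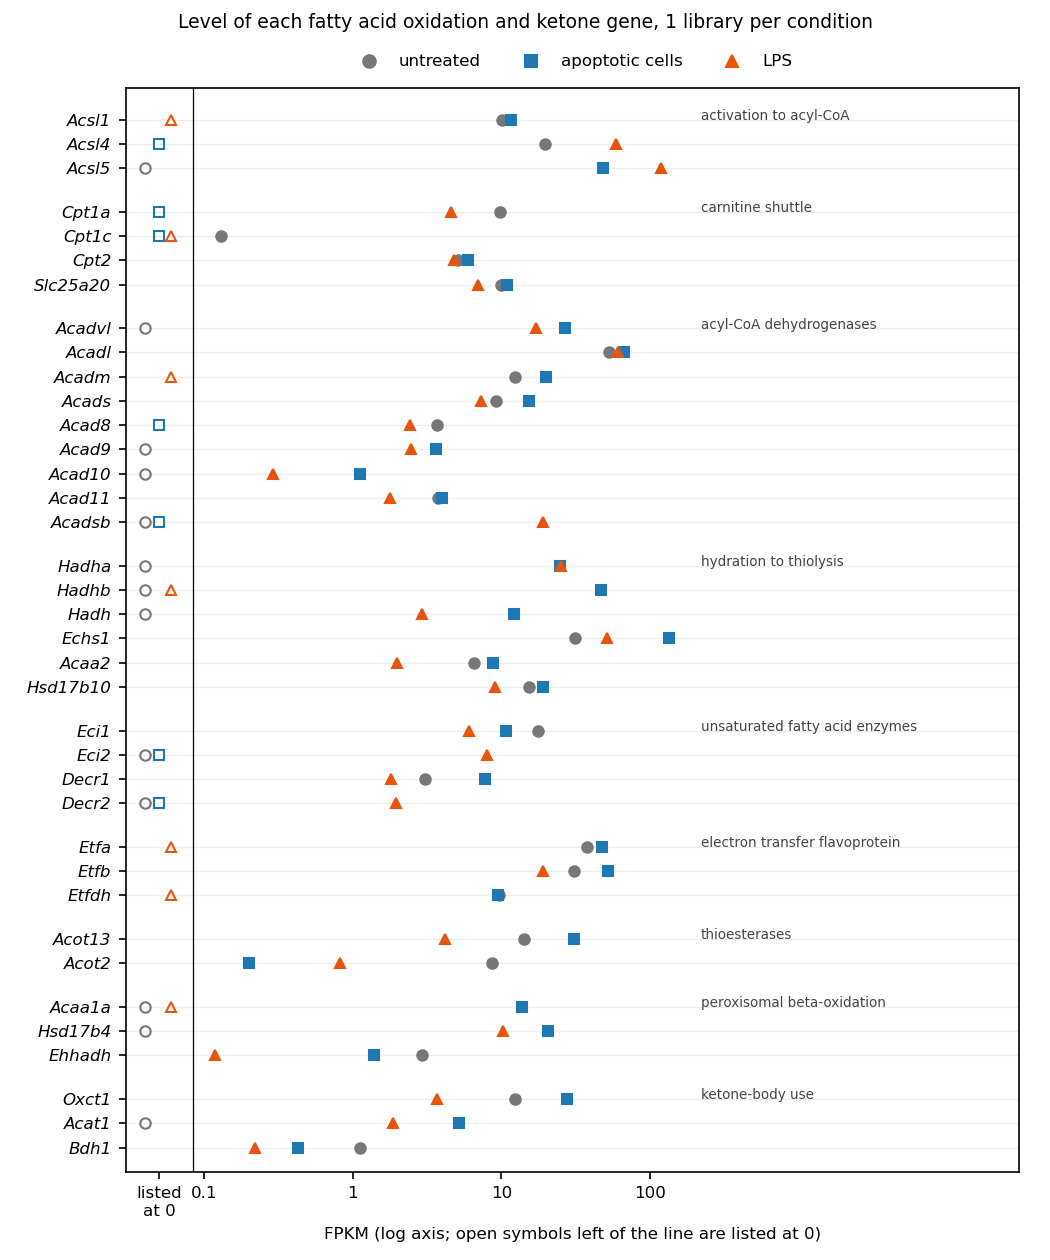
FPKM (x axis, log scale) of the 37 members with a row, grouped by role, with 1 point for each of the 3 libraries and open symbols for a listed 0. Among members above 0 in all libraries the blue squares (apoptotic cells) mostly lie to the right of the orange triangles (LPS), with Acot2 as the exception.

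Of the 3 acyl-CoA synthetases in the tables, which start the route, each was listed at 0 in 1 library, so that each gave a single ratio. Acsl4, the synthetase that prefers arachidonic acid, stood at 19.8 FPKM untreated and 59.3 FPKM with LPS, and was listed at 0 with apoptotic cells. The LPS value was 2.99 times the untreated one (interval 2.64 to 3.41). Acsl5, a second synthetase of long chains, stood at 118 FPKM with LPS and 47.9 FPKM with apoptotic cells, and was listed at 0 untreated. The apoptotic-cell value of Acsl5 was thus 0.406 times that with LPS (interval 0.368 to 0.446). Both ratios thus put the LPS library higher. Acsl1 stood at 10.1 FPKM untreated and 11.7 FPKM with apoptotic cells, a ratio of 1.15 whose interval spanned 1 (0.901 to 1.49), and was listed at 0 with LPS.

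In the carnitine shuttle, ratios beyond counting error were found for Cpt1a and Slc25a20. Cpt1a, the rate-limiting carnitine palmitoyltransferase of the outer membrane, stood at 9.78 FPKM untreated and 4.63 FPKM with LPS. That is 0.473 of the untreated level (interval 0.340 to 0.651), a log2 ratio of -0.94 and so just short of a 2-fold difference on the scale counted below. With apoptotic cells Cpt1a was listed at 0, so no ratio could be formed for that library. Cpt2, its inner-membrane partner, stood at 5.13 FPKM untreated, 5.94 FPKM with apoptotic cells and 4.81 FPKM with LPS, and each of its 3 ratios had an interval that spanned 1. Slc25a20, the carnitine-acylcarnitine carrier, stood at 10.02, 10.8 and 6.9996 FPKM. Its ratio of apoptotic cells to LPS was 1.55 (1.01 to 2.47), and both ratios to the untreated level had intervals that spanned 1. Cpt1c, a brain form, was at 0.130 FPKM untreated and listed at 0 elsewhere.

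The first dehydrogenation step included Acadl, with the highest untreated level of the members. Acadl, the long-chain enzyme, stood at 53.2, 67.3 and 61.1 FPKM untreated, with apoptotic cells and with LPS. Its largest ratio was 1.26 (interval 1.09 to 1.48), apoptotic cells over untreated. Acadvl, the very-long-chain enzyme, stood at 17.1 FPKM with LPS and 27.0 FPKM with apoptotic cells, a ratio of 1.58 (1.23 to 2.02), and was listed at 0 untreated. Acadm, the medium-chain enzyme, stood at 12.3 and 20.1 FPKM untreated and with apoptotic cells, a ratio of 1.63 (interval 1.21 to 2.18), and was listed at 0 with LPS. Acads, the short-chain enzyme, stood at 9.27, 15.4 and 7.32 FPKM, which put apoptotic cells above both other libraries. The level with apoptotic cells was 2.101 times that with LPS (interval 1.41 to 3.15). Acad11 stood at 3.76, 4.02 and 1.80 FPKM, so that LPS was at 0.478 of the untreated level (0.262 to 0.866) and apoptotic cells at 2.23 times the LPS level (1.23 to 4.02). Acad9, also an assembly factor of complex I, stood at 2.46 FPKM with LPS and 3.64 FPKM with apoptotic cells and was listed at 0 untreated. Acad8, an enzyme of valine breakdown, stood at 3.70 FPKM untreated, was listed at 0 with apoptotic cells and stood at 2.42 FPKM with LPS. Acadsb, which acts on branched short chains, was listed at 19.1 FPKM with LPS and at 0 in both other libraries. Acad10 was under the filter, at 0.290 FPKM with LPS, 1.13 FPKM with apoptotic cells and a listed 0 untreated. On the log2 scale counted below, which adds 1 FPKM to each value, no dehydrogenase above the filter passed 2-fold in any comparison.

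Echs1, the short-chain enoyl-CoA hydratase of the second step, had the highest level of the members with apoptotic cells. It stood at 31.1 FPKM untreated, 133 FPKM with apoptotic cells and 51.1 FPKM with LPS. The level with apoptotic cells was 4.29 times the untreated one (interval 3.56 to 5.17) and 2.61 times that with LPS (2.23 to 3.07). The gene body of Echs1 overlaps that of Paox, and how reads on both were counted is not stated. Hadh, the hydroxyacyl-CoA dehydrogenase of the third step, stood at 2.93 FPKM with LPS and 12.1 FPKM with apoptotic cells, a ratio of 4.14 (2.37 to 8.25), and was listed at 0 untreated. Acaa2, the mitochondrial thiolase of the last step, stood at 6.60, 8.80 and 1.98 FPKM untreated, with apoptotic cells and with LPS. The value with LPS was 0.301 of the untreated one (0.118 to 0.667) and rests on about 8.20 reads. Hsd17b10, which acts on branched short-chain acyl groups and is a subunit of mitochondrial RNase P, stood at 15.3, 19.2 and 9.07 FPKM. For Hsd17b10 the ratio of apoptotic cells to LPS was 2.11 (1.25 to 3.49). So 4 of 5 enzymes of these steps with a ratio were at least 2-fold higher with apoptotic cells than with LPS, the exception being Hadha. Of all 4599 genes compared 15.7% were. Under median-of-ratios scaling Echs1 and Hsd17b10 fell short of 2-fold, at log2 ratios of 0.96 and 0.63.

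Hadha and Hadhb encode the subunits of the trifunctional protein, which carries out the last 3 steps on long chains. Hadha stood at 25.4 FPKM with LPS and 24.7 FPKM with apoptotic cells, a ratio whose interval spanned 1 (0.974, interval 0.828 to 1.15), and was listed at 0 untreated. Hadhb stood at 47.0 FPKM with apoptotic cells and was listed at 0 in both other libraries. The 2 genes lie head to head on chromosome 5, with RefSeq start sites at 30154980 for Hadha (minus strand) and 30155253 for Hadhb (plus strand), 273 bases apart. Bases from between the RefSeq starts are shown because the genes share this interval, while with LPS Hadha is listed above 0 and Hadhb at 0. That 0 can be a failed estimate. In GENCODE M21 Hadha starts at 30155162 and Hadhb at 30155248, so that part of the bases shown lies within Hadha. The bases shown are the 250 before the RefSeq start of Hadhb at chr5:30155003-30155252 of GRCm38.p6, plus strand, 5′ to 3′.
Hadhb: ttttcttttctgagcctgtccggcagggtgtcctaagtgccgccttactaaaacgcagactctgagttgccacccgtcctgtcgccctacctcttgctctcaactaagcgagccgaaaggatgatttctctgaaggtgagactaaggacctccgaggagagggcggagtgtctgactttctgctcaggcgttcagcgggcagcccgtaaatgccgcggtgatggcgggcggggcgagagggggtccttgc

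Unsaturated fatty acids need isomerases and a reductase to enter the cycle. Decr1, the mitochondrial dienoyl-CoA reductase, stood at 3.05, 7.76 and 1.80 FPKM untreated, with apoptotic cells and with LPS. The value with apoptotic cells was 2.54 times the untreated one (1.63 to 4.18) and 4.30 times that with LPS (2.43 to 8.09). Eci1, a mitochondrial enoyl-CoA isomerase, was highest untreated, at 17.6 FPKM against 10.8 FPKM with apoptotic cells and 6.04 FPKM with LPS. With LPS Eci1 stood at 0.344 of the untreated level (0.189 to 0.587). Eci2 was listed at 8.06 FPKM with LPS and at 0 elsewhere, and Decr2, the peroxisomal reductase, at 1.97 FPKM with LPS and at 0 elsewhere, under the filter.

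The electron transfer flavoprotein, a dimer of the Etfa and Etfb products, and its dehydrogenase Etfdh were measured side by side only in the untreated and apoptotic-cell libraries. Etfb stood at 30.6, 51.8 and 19.2 FPKM untreated, with apoptotic cells and with LPS. Its level with apoptotic cells was 2.70 times that with LPS (1.88 to 3.82). Etfa stood at 37.8 FPKM untreated and 47.6 FPKM with apoptotic cells and was listed at 0 with LPS. Etfdh stood at 9.69 and 9.53 FPKM untreated and with apoptotic cells, a ratio of 0.984 (0.700 to 1.41), and was listed at 0 with LPS. The listed zeros of Etfa and Etfdh beside 19.2 FPKM of Etfb mean that LPS could be compared for only 1 of these 3 partners.

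Thioesterases release free fatty acids from acyl-CoA, and the 2 measured here differed from no treatment in opposite directions with apoptotic cells. Acot13 stood at 14.3, 30.7 and 4.21 FPKM untreated, with apoptotic cells and with LPS. Against LPS the level with apoptotic cells was 7.28 times as high (3.34 to 17.0). Acot2, a mitochondrial thioesterase, stood at 8.64, 0.202 and 0.822 FPKM, about 57.0, 1.32 and 5.03 reads. With apoptotic cells it stood at 0.0234 of the untreated level (interval 0.00044 to 0.103) and with LPS at 0.0951 (0.0296 to 0.234). Among members past the filter, Acot2 and Ehhadh, described next, were more than 2-fold lower in both treated libraries on the plain ratio. With 1 FPKM added to each value only Acot2 was. Acot1 is a near-identical neighbour of Acot2, and how shared reads were counted is not given. Named here after its values were seen, Acot1 stood at 1.57 FPKM untreated, was listed at 0 with apoptotic cells and stood at 0.282 FPKM with LPS.

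Of the 4 peroxisomal members only Ehhadh could be compared with the untreated library. Hsd17b4, the bifunctional enzyme for branched and very long chains, was listed at 0 untreated and stood at 10.2 FPKM with LPS and 20.6 FPKM with apoptotic cells, a ratio of 2.02 (1.53 to 2.67). Ehhadh, the other bifunctional enzyme, stood at 2.93, 1.40 and 0.119 FPKM, the last about 1.00 read. Ehhadh stood at 0.480 of the untreated level with apoptotic cells (0.230 to 0.973) and at 0.0408 with LPS (0.000976 to 0.242). The apoptotic-cell table alone lists Acaa1a, a peroxisomal thiolase, above 0, at 13.7 FPKM. It has a near copy, Acaa1b, at 2.14 FPKM untreated, 2.75 FPKM with apoptotic cells and 3.05 FPKM with LPS.

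RNA levels of ketone-body genes differed between the treated libraries for both genes past the filter. Oxct1 stood at 12.3 FPKM untreated, 27.6 FPKM with apoptotic cells and 3.71 FPKM with LPS. It was 2.23 times the untreated level with apoptotic cells (1.82 to 2.76) and 0.301 of it with LPS (0.203 to 0.435), and 7.43 times as high with apoptotic cells as with LPS (5.28 to 10.8). The gene body of Oxct1 overlaps that of BC037032. Acat1 stood at 1.88 FPKM with LPS and 5.17 FPKM with apoptotic cells, a ratio of 2.75 (1.59 to 4.99), and was listed at 0 untreated. Bdh1, the hydroxybutyrate dehydrogenase, was under the filter at 1.12, 0.430 and 0.222 FPKM. On the plain ratio it was at 0.384 of the untreated level with apoptotic cells (0.0851 to 1.24) and at 0.198 with LPS (0.0211 to 0.899). Its ratio of apoptotic cells to LPS was 1.94, with an interval that spanned 1 (0.268 to 20.7). Oxct1 and Acat1 thus pointed the same way between the treated libraries. In all 19 of the 22 members compared were higher with apoptotic cells than with LPS, beside 69.6% of all genes.

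**Figure D2:**
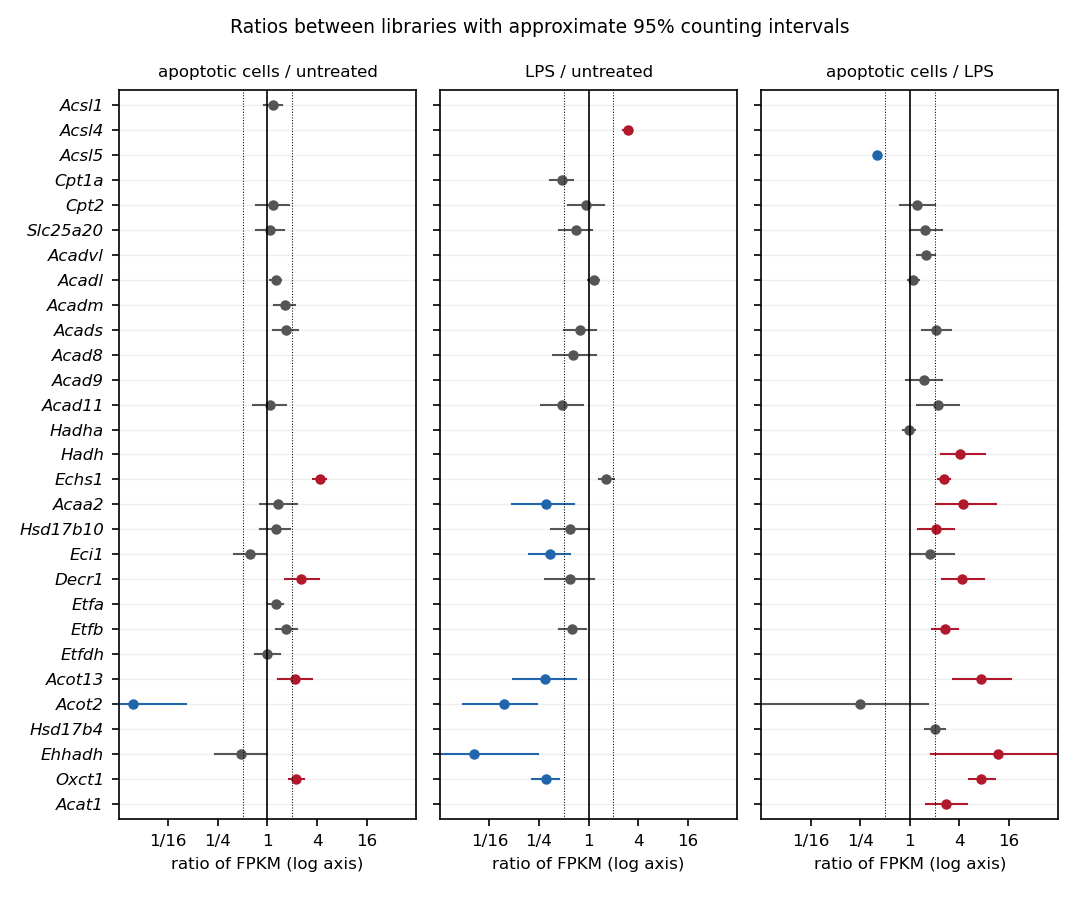
Ratio of FPKM between libraries (x axis, log scale) for each member above 0 in both, with bars for approximate 95% counting intervals; dotted lines mark 2-fold, and red and blue mark members at least 2-fold higher or lower on the log2(FPKM + 1) scale. Bars of Acot2 and Ehhadh run past the axis. Most points of the right panel lie above 1, as did 69.6% of all genes compared.

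For counts across the pathway, ratios were taken as log2((FPKM + 1) / (FPKM + 1)), which understates differences of low genes, over genes past the filter. Apoptotic cells could be compared with no treatment for 19 members. Of these 4 were at least 2-fold higher, namely Echs1 (log2 ratio 2.07), Decr1 (1.11), Oxct1 (1.10) and Acot13 (1.053). Only Acot2 was at least 2-fold lower (-3.00), and 14 differed by less. The shares of members, 21.1% higher and 5.26% lower, stand beside 12.4% and 16.4% of the 3369 genes compared. The members' median was 0.32 against -0.13 for all genes, and 15 of 19 members lay above 0 where 44.5% of all genes did. With median-of-ratios scaling the split over all genes became 15.97% higher and 12.7% lower, and the members' counts stayed at 4 and 1. Leaving out members that overlap a gene in the tables or have a near copy removes Echs1, Oxct1 and Acot2, among others. Then 2 of 14 were higher and 0 lower, beside the same 12.4% and 16.4% of all genes. The larger share of higher members thus rests in part on Echs1 and Oxct1.

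LPS could be compared with no treatment for 18 members. Acsl4 was at least 2-fold higher (1.53), and 6 were at least 2-fold lower: Acot2 (-2.40), Ehhadh (-1.81), Acot13 (-1.55), Oxct1 (-1.50), Eci1 (-1.40) and Acaa2 (-1.35). The shares of 5.56% and 33.3% lay near the background of 8.51% and 26.2% of 3421 genes. The median was -0.67 against -0.40 for all genes. This comparison moved with scaling. Under median-of-ratios scaling all genes shifted by 0.51, 2 members were higher and 3 lower, and the background became 18.9% and 13.2%. The signs of Cpt2, Slc25a20, Acads and Acad8 turned under that scaling.

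The comparison of apoptotic cells with LPS does not use the untreated library, which had the most listed zeros, and took in 22 members. At least 2-fold higher with apoptotic cells were 10 of them, or 45.5%, beside 15.7% of 4599 genes. They were Acot13 (2.60), Oxct1 (2.60), Hadh (1.74), Acaa2 (1.72), Decr1 (1.64), Etfb (1.39), Echs1 (1.37), Ehhadh (1.10), Acat1 (1.10) and Hsd17b10 (1.00). Acads, Hsd17b4 and Acad11 followed just short of the threshold, at 0.98, 0.95 and 0.84. At least 2-fold lower was Acsl5 (-1.28), or 4.55% of members beside 5.54% of all genes. The members' median was 0.96 and that of all genes 0.32, and 19 of 22 members lay above 0 where 69.6% of all genes did. With median-of-ratios scaling 6 members were higher and 1 lower, beside 9.11% and 9.63% of all genes, with a members' median of 0.59 against -0.01. Cpt2 and Acadl changed sign under that scaling and under upper-quartile scaling. This comparison shares a library with each of the other 2.

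**Figure D3:**
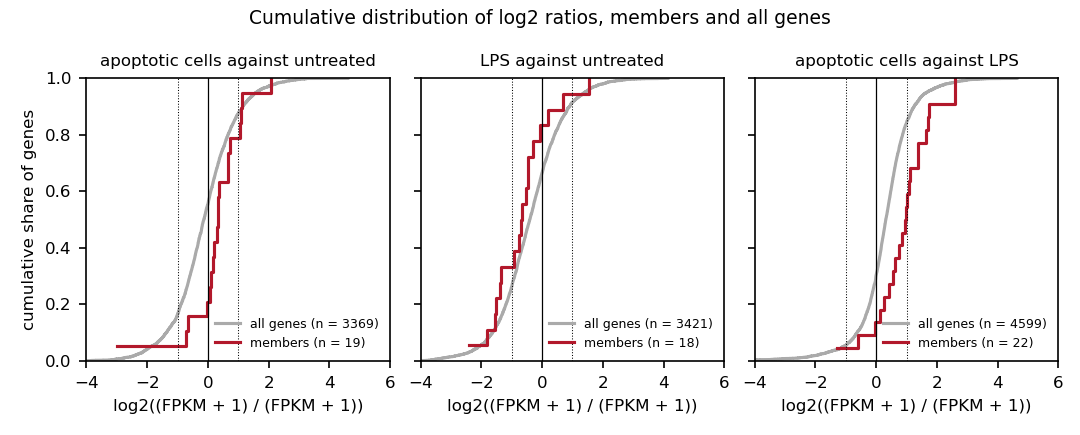
Cumulative share of genes (y axis) at or below each log2 ratio (x axis) for the members and for all genes compared, 1 panel a comparison, with dotted lines at 2-fold. The members' line lies to the right of that of all genes over most of the left and right panels, where the members' medians are 0.32 and 0.96.

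Of the members past the filter, 15 were above 0 in all 3 libraries, which allows the conditions to be put in order for each. Apoptotic cells gave the highest value of 12 of them and LPS the lowest of 12, and 10 had both. Among the 2891 genes past the filter and above 0 throughout, 35.2% were highest with apoptotic cells, 53.3% lowest with LPS and 19.0% both. LPS gave the highest value of 0 of the 15, and of 2 under median-of-ratios or upper-quartile scaling. Those of the 15 that were not highest with apoptotic cells were Eci1, Acot2 and Ehhadh, all highest untreated. Summed over the 15, levels were 224, 395 and 180 FPKM untreated, with apoptotic cells and with LPS, where Echs1 alone went from 31.1 to 133 FPKM. Their medians were 10.02, 10.8 and 4.81 FPKM. Under median-of-ratios scaling apoptotic cells were highest for 10, LPS lowest for 9 and both held for 7, with 31.4%, 32.3% and 12.2% of all genes.

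Markers of other cells also differed between the libraries, in an order that varied from list to list. Their part in the members' differences was not tested. The T cell and thymocyte list, with all 12 genes in the tables, summed to 31.0 FPKM untreated, 101 FPKM with apoptotic cells and 2.21 FPKM with LPS. Listed at 0 were 8 of these genes untreated, 1 with apoptotic cells and 6 with LPS. The larger sum with apoptotic cells came from genes listed at 0 untreated, Rag1 foremost at 41.2 FPKM. Of the 3 genes comparable with the untreated library, 0 were 2-fold higher with apoptotic cells (median -0.23), and against LPS 5 of 5 were. RNA of apoptotic cells that were taken up and RNA of the macrophages cannot be told apart in these libraries, nor can fewer cells of a type and less RNA per cell. The mast cell and eosinophil list (9 of 10 in the tables) summed to 93.0, 13.8 and 10.2 FPKM, and the mesothelial and fibroblast list (8 of 8) to 26.5, 2.28 and 1.13 FPKM. Both were thus highest untreated, as Acot2, Eci1 and Ehhadh were. Listed at 0 untreated, with apoptotic cells and with LPS were 4, 4 and 3 of the mast cell and eosinophil genes and 1, 2 and 6 of the mesothelial and fibroblast genes. B cell genes (10 of 11) summed to 863, 209 and 192 FPKM and neutrophil genes (9 of 10) to 119, 324.6 and 496 FPKM, with 6, 3 and 1 and with 2, 3 and 5 of them listed at 0. The large peritoneal macrophage list (11 of 12) summed to 806, 1285 and 780 FPKM with 3, 8 and 5 listed at 0, and with apoptotic cells nearly all of it was Cd9 (912 FPKM) and Cxcl13 (364 FPKM).

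Other enzymes of acyl-CoA metabolism in the mitochondrion, 24 genes of which 17 passed the filter, are set beside the members here. Of 14 that could be compared, 7 were at least 2-fold higher with apoptotic cells than with LPS and 0 were lower, with a median of 1.01. All genes gave 15.7% higher, 5.54% lower and a median of 0.32. Largest were the propionyl-CoA carboxylase subunits Pccb (8.53 against 1.93 FPKM, 1.70) and Pcca (5.25 against 1.02 FPKM, 1.63), Hibch of valine breakdown (14.2 against 3.92 FPKM, 1.62) and the acyl-CoA synthetase Acsf2 (6.63 against 1.65 FPKM, 1.53). Against no treatment 0 of 10 were past 2-fold with apoptotic cells, beside 12.4% higher and 16.4% lower of all genes. With LPS 1 of 10 was lower, Pccb (6.12 FPKM untreated, -1.28), beside 26.2% of all genes.

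Further peroxisomal genes, 21 of which 15 passed, gave 6 of 14 at least 2-fold higher with apoptotic cells than with LPS and 0 lower (median 0.81), beside 15.7% and 5.54% of all genes. Among them Abcd2, an importer of very-long-chain acyl-CoA, stood at 1.31, 8.26 and 0.359 FPKM untreated, with apoptotic cells and with LPS (2.77). Pex11a, a factor of peroxisome division, stood at 0.939, 8.41 and 0.502 FPKM (2.65), and Ech1, a dienoyl-CoA isomerase, at 42.1, 70.1 and 13.5 FPKM (2.29). Abcd2 and Pex11a were also the 2 of 10 at least 2-fold higher with apoptotic cells than untreated (2.002 and 2.28), beside 12.4% of all genes. With LPS, 2 of 9 were lower than untreated, Ech1 (-1.57) and Amacr (-1.29), a smaller share than the 26.2% of all genes, and 0 were higher.

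The remaining pathway lists gave few ratios. Of 18 regulators 6 passed the filter. Esrra, a nuclear receptor that drives oxidation genes, stood at 6.75, 8.75 and 11.5 FPKM untreated, with apoptotic cells and with LPS. Mlycd, which removes the malonyl-CoA that blocks CPT1, stood at 2.04 FPKM with LPS and 6.15 FPKM with apoptotic cells (1.24), and was listed at 0 untreated. Ppara was at 0.126, 0.178 and 0.0919 FPKM, close to the level of 1 read, and Pparg at 1.25, 0 and 0.979 FPKM. The coactivator gene Ppargc1a was listed at 0 throughout, Ppargc1b was at 0.171 FPKM untreated and listed at 0 elsewhere, and Acacb was at 0.109 FPKM untreated and listed at 0 elsewhere. Ppard, Acaca, Cd36 and Plin2 were not analysed here. Of the list of PPAR targets outside the members, 10 genes, 1 passed and 0 could be compared. The ketone list held 9 genes, of which 6 passed. With apoptotic cells against no treatment 0 of 3 were past 2-fold, beside 12.4% higher and 16.4% lower of all genes. Against LPS 0 of 4 were, beside 15.7% and 5.54%. So few genes cannot show that the list differed less than all genes. With LPS 1 of 4 was lower than untreated, beside 26.2% of all genes, the transporter gene Slc16a6 (9.36 and 2.56 FPKM, -1.54). The monocarboxylate carrier gene Slc16a1 stood at 7.38, 8.48 and 8.55 FPKM. Of 5 carnitine supply genes 2 passed, and Aldh9a1 stood at 13.6, 17.9 and 7.63 FPKM (1.13 against LPS).

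Promoter sequence is shown for Echs1, Oxct1 and Cpt1a. Echs1 and Oxct1 were at least 2-fold higher with apoptotic cells than in both other libraries. Cpt1a, the gate of the pathway, was listed at 0 with apoptotic cells. Its single ratio, LPS to untreated, was 0.473 and fell short of 2-fold only with 1 FPKM added to each value. RefSeq windows of GRCm38.p6, from 250 bases before to 50 after a start, were held for 33 of the 41 members, 35 windows in all. Searched on both strands, the nuclear receptor core motif AGGTCA was in 14.3% of member windows and 16.3% of all 32851 windows. The CCAAT box, CCAAT, was in 45.7% and 37.4%. The ERR site TCAAGGTCA, which contains the core motif, was in 0 member windows and 0.423% of all. The CRE TGACGTCA was in 0 and 1.79%, and the DR1 element of PPAR, written AGGTCANAGGTCA, in 0 and 0.0396%. The bases before the start follow, 5′ to 3′ on each gene's strand, with matches to these motifs in capitals: chr7:140116422-140116671 (minus strand) for Echs1, chr15:4026178-4026427 (plus) for Oxct1 and chr19:3323051-3323300 (plus) for Cpt1a.
Echs1: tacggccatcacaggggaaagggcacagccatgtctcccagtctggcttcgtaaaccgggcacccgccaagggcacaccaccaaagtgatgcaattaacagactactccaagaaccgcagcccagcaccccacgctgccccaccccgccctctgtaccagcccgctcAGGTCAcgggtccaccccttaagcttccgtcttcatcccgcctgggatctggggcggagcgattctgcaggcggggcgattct
Oxct1: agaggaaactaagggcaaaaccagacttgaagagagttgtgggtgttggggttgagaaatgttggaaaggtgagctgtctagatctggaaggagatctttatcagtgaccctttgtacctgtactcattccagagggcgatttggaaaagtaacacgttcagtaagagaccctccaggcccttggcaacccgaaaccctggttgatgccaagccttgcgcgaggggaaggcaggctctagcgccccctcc
Cpt1a: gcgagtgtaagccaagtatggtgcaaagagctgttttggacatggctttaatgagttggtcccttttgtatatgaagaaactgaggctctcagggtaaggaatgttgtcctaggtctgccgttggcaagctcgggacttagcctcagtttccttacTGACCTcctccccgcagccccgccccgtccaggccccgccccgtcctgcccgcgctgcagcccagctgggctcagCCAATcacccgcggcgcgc
Echs1 had 1 core motif, its first base 83 bases before the start. Cpt1a had 1 on the opposite strand, 94 bases before, and a CCAAT box 19 bases before. These distances are from RefSeq starts. In GENCODE M21 Cpt1a starts at 3322334, so that all its bases shown lie within that gene. Echs1 and Oxct1 start there at 140116476 and 4026383, so that part of their bases shown does too. Oxct1 held none of these motifs, as did Hadhb. For the core motif and the CCAAT box the share of member windows lay within 10 percentage points of that of all windows.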

How the data were processed

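The deposited tables, 1 for each library, pair every gene symbol with a single value. The authors' values were taken as FPKM: no unit is labelled, the submitters' processing notes list build mm10 and the tools Cufflinks 2.2.1, Cuffdiff, TopHat2 2.1.0 and cutadapt 1.14, and low values step with transcript length. Options, annotation and strandedness: not given in the sources used here. Of 33 members, 10 overlap another annotated gene. Groups come from the labels. The members and lists were chosen with earlier results of these data known. Members were matched by symbol. Of each other list, up to 4 genes past 2-fold a comparison and a fixed set are named, and some of these are not reported here.

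The read steps came from 7074 genes with 1 GENCODE M21 transcript over 1000 bases, less an offset of 100 bases. Of low values, 61.1% to 65.1% fell within 0.15 of 1 or 2 reads, too few to recover whole reads, so a count test was left out. Approximate reads use the longest transcript, and intervals are exact binomial. Ratios with intervals are plain FPKM ratios, and log2 ratios, used for all counts and medians, add a pseudocount of 1 FPKM. No P values are given, since a condition has 1 library. Alternatives covered pseudocount, filter, fold, scaling and zeros. Steps were tested on simulated data. Python 3.11.15 with pandas 2.3.3 and scipy 1.17.1 was used.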

Additional observations from a re-analysis of the deposited data

How the results depend on the processing

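No member past 2-fold changed direction under the alternatives run. Of 196 single-gene values 146 stayed within 0.3 on the log2 scale, 50 moved further and 0 reversed. Part of this was fixed in advance. Settings of filter and zeros cannot alter a single gene's ratio, and a pseudocount cannot turn its sign, so that only scaling could reverse a direction. Members' medians moved to -0.10 (median-of-ratios) and -0.30 (upper quartile) for LPS against untreated; to 0.59, 0.66 and, with a pseudocount of 5 FPKM, 0.55 for apoptotic cells against LPS; and to 0.66 for apoptotic cells against untreated with a listed 0 taken as a value. Shares of all genes under the same setting stand in brackets. For apoptotic cells against untreated, 7 of 19 were higher and 3 lower at 1.5-fold (22.1% and 30.3%), and 1 was higher at 4-fold (2.85%). With zeros as values 13 of 31 were higher and 4 lower (all genes 41.4% and 21.3%). With a pseudocount of 5 FPKM 1 was higher (6.98%), with 0.1 FPKM 2 were lower (21.7%), and under a filter of 5 FPKM 0 were lower (13.0%). For LPS against untreated, 2 of 18 were higher and 10 lower at 1.5-fold (15.9% and 42.7%), and 0 and 1 at 4-fold (1.99% and 5.67%). With zeros as values 10 and 10 of 31 were (all genes 39.6% and 25.5%), and under median-of-ratios 2 and 3 (18.9% and 13.2%). Upper-quartile scaling gave 2 higher (14.1%), a pseudocount of 5 FPKM 3 lower (9.38%), and genes above 0 in all 3 libraries 0 higher (8.20%). For apoptotic cells against LPS, 2 of 22 were higher and 0 lower at 4-fold (3.22% and 1.96%), and 16 and 6 of 33 with zeros as values (all genes 25.5% and 20.8%). At 1.5-fold 2 were lower (10.8%), as with a pseudocount of 0.1 FPKM (7.31%) or with each library rescaled to the same sum (6.98%). Median-of-ratios gave 6 higher (9.11%), a pseudocount of 5 FPKM 5 higher (6.04%), and genes above 0 in all 3 libraries 0 lower (6.30%). Leaving out members that overlap a gene or have a near copy was chosen after seeing the data, as was the order under scaling. For apoptotic cells against untreated it gave 2 of 14 higher and 0 lower, beside 12.4% and 16.4% of all genes without that exclusion. The causes were not tested, beyond fewer genes or another threshold where the setting itself imposes it. No paired analysis was possible because each condition has 1 library. Values near 1 read, such as Acot2 with apoptotic cells and Ehhadh with LPS, are limited by depth.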

Other observations

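Genes of fatty acid uptake, binding and release from lipid stores, 15 listed and 11 past the filter, were split between the treatments. Lipa, the lysosomal acid lipase, stood at 114 FPKM untreated, 323 FPKM with apoptotic cells and 150 FPKM with LPS. Dbi, the acyl-CoA binding protein, stood at 61.9, 244 and 135 FPKM in the same order, so that 2 of 4 genes compared were at least 2-fold higher with apoptotic cells than untreated, beside 12.4% of all genes. With LPS 3 of 7 were at least 2-fold higher than untreated, namely Fabp3, a fatty acid binding protein (28.8 and 161 FPKM), Slc27a4, a fatty acid transporter (17.1 and 56.9 FPKM), and Dbi, beside 8.51% of all genes. The lipid droplet coat gene Plin3 was lower (25.4 and 9.38 FPKM), 1 of 7 beside 26.2%. Between the treated libraries Lipa, Plin3 and Abhd5, an activator of lipolysis (24.99 and 9.97 FPKM), were higher with apoptotic cells, 3 of 7 beside 15.7% of all genes. Lpl (12.7 and 28.6 FPKM) and Fabp3 were lower, 2 of 7 beside 5.54%. Fabp4, another binding protein, was listed at 143 FPKM with LPS and at 0 elsewhere.

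Of the 15 members past the filter and above 0 in all libraries 66.7% have a single annotated transcript, and of the 18 listed at 0 in any library 44.4%. Over all genes matched the shares were 54.9% of 2612 and 40.7% of 3883.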
